A study of Mus musculus with 6 samples.

Results

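The replication-dependent histone genes encode the linker histone H1 and the core histones H2a, H2b, H3 and H4. They were taken here as the rows of the gene tables in which each gene name begins with Hist, a digit and h, and 67 of 23698 rows met this rule. The rows were grouped by family, with 6 of H1, 18 of H2a, 18 of H2b, 12 of H3 and 13 of H4, and by cluster, with 53 rows of Hist1, 10 of Hist2, 3 of Hist3 and 1 of Hist4. A single row, in family H2b, joined the names of 2 genes, *Hist1h2bq* and *Hist1h2br*. The rule used names only and no measured value.

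The study asked how altered mRNA isoforms affect translation in squamous cell carcinoma cells. The libraries used here came from mouse primary keratinocytes of P0 back skin with the genotype HrasG12V; Tgfbr2 fl/fl KO, called SCC, at passage 10 to 15. They comprised 1 ribosome profiling library, which counts the mRNA fragments protected by ribosomes (footprints), and 2 RNA-seq libraries, labelled replicates 1 and 2. All 3 libraries were from the same previously generated knockout line grown in culture, with CHX treatment named in the extraction protocol, and no wild-type library entered any comparison, so the values describe this line alone.

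In dividing cells these genes are transcribed during S phase to package newly copied DNA. Their mRNAs differ from other mRNAs in that most have no introns and end in a conserved stem-loop, bound by the stem-loop binding protein SLBP, in place of a poly(A) tail. The core histones enter the nucleosome in equal numbers while linker histones bind between nucleosomes, and each core family is encoded by many genes of nearly the same coding sequence.

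Exon counts came to 10707930 for replicate 1 of RNA-seq and 14003713 for replicate 2, and footprints on coding sequences (CDS) to 3198469. The 6 basal keratinocyte markers *Krt5*, *Krt14*, *Trp63*, *Itga6*, *Itgb4* and *Col17a1* were all detected, with 58169 footprints and, in RNA-seq replicates 1 and 2, 367919 and 545138 counts, and *Krt5* was the most abundant with 28660 footprints and 186784 and 290816 RNA-seq counts. The 4 fibroblast markers had 10 footprints, all on *Pdgfra*, and 477 and 1029 RNA-seq counts, with *Col3a1* the most abundant at 232 and 428. The 3 immune markers had 36.9 footprints and 484 and 680 RNA-seq counts, nearly all on *Cd68*, and *Cd3e* was at 0 in each library. The 2 endothelial and 3 melanocyte markers had 0 footprints and at most 13 RNA-seq counts in a library. The markers thus matched the keratinocyte label, and the part of the few fibroblast and immune counts in the histone values was not tested.

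The stem-loop sequences are shown first, since they set these mRNAs apart from others. GENCODE M21, an annotation of GRCm38, holds a coding transcript for each gene named in these rows except *Hist3h2bb-ps*, 67 genes in all, and the transcript of each with the longest CDS was searched after its stop codon, on the transcript strand, for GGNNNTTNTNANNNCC, where N is any base and the 6 bases at each side had to pair. The motif was found in 45 genes, starting 22 to 59 nt after the stop codon with a median of 32 nt. Where 60 nt or more of 3′UTR are annotated, in 48 genes, 43 held it. The 19 others have little or no annotated 3′UTR, and 2 of them held it. In the annotation as a whole, 69 of 21877 coding gene names held it anywhere in a transcript, 46 of them among the genes described here. A match is a description of the sequence and not of its use.
The 45 genes carried 8 different stem-loops. Each is shown once, 5′ to 3′ on the transcript strand, with the stem and loop in capitals and the flanking bases in lower case.
*Hist1h2ag*: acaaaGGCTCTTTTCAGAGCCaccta
*Hist1h3c*: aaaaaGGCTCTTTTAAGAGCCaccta
*Hist1h3g*: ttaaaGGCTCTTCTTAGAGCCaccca
*Hist2h2ac*: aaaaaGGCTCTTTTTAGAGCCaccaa
*Hist1h4c*: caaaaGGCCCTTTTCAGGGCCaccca
*Hist1h4i*: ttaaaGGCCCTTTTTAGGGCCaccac
*Hist1h4a*: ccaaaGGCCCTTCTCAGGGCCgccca
*Hist1h4b*: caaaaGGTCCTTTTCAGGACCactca

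The form shown for *Hist1h2ag* (chr13:22042478-22042503, minus strand) was the most common, with 25 genes of the H1, H2a, H2b and H3 families. That of *Hist1h3c* (chr13:23745042-23745067, minus strand) was found in 6 genes of H1, H2b and H3, and those of *Hist1h3g* (chr13:23535884-23535909, plus strand) and *Hist2h2ac* (chr3:96220413-96220438, minus strand) in 1 gene each. The H4 genes had stems of their own. The form of *Hist1h4c* (chr13:23698084-23698109, minus strand) was found in 7 genes, that of *Hist1h4i* (chr13:22040961-22040986, minus strand) in 2, that of *Hist1h4b* (chr13:23757361-23757386, plus strand) in 2 and that of *Hist1h4a* (chr13:23760795-23760820, minus strand) in 1. None of these 4 forms occurred in a gene of another family, and none of the other 4 occurred in an H4 gene.

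Among those genes that have 60 nt or more of annotated 3′UTR, 5 lacked the motif in the transcript searched, all of them H2b genes: *Hist1h2bc*, *Hist1h2bp*, *Hist1h2bq*, *Hist1h2br* and *Hist2h2be*. The transcript searched had 2 exons in each of them but *Hist2h2be*. A poly(A) signal, spelled AATAAA or ATTAAA and searched on the transcript strand, lay within 40 nt of the annotated transcript end in 17 of the 67 genes. It lay there in 48.7% of the 58725 other coding transcripts. For these, all transcripts of a gene were searched, whatever region the last 40 nt held. The histone genes were searched in a single transcript each and only after the stop codon. Of them, 19 have little or no annotated 3′UTR, so the 2 numbers are unlike measures. The ends of the 5 genes below are shown because these genes were among the 8 with most RNA-seq counts, with the signal in capitals.
*Hist3h2a*: tgcccAATAAAataagagtacgtgtataac
*Hist1h2be*: tccttATTAAAgcattcctgattga
*Hist2h2be*: ttattAATAAAgttaccgattagtttc
*Hist1h1c*: cttctAATAAAaagcgtttagttttcattc
*Hist1h4i*: tttacATTAAAagtattctatgctaa

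These stretches lie at chr11:58956792-58956821 (*Hist3h2a*, plus strand), chr13:23583670-23583694 (*Hist1h2be*, minus strand), chr3:96223712-96223738 (*Hist2h2be*, plus strand), chr13:23740337-23740366 (*Hist1h1c*, plus strand) and chr13:22040636-22040661 (*Hist1h4i*, minus strand). Except for *Hist2h2be*, these genes also held the stem-loop, so that their annotated transcripts ran past it to a poly(A) signal.

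The genes of a family also share long runs of coding sequence, which bears on how footprints could be assigned to them. The stretch of 28 nt shown for each family is the one held by most of its genes in the CDS.
H1 (5 of 6 genes): ACGATGTGGAGAAGAACAACAGCCGCAT
H2a (17 of 18 genes): CATCCGCAACGACGAGGAGCTCAACAAG
H2b (17 of 18 genes): CGCATTACAACAAGCGCTCGACCATCAC
H3 (12 of 12 genes): AAGCTGCCGTTCCAGCGCCTGGTGCGCG
H4 (12 of 13 genes): GGTGTGCTGAAGGTGTTCCTGGAGAACG

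The H1 gene without its stretch was *Hist1h1t*, the H2a gene *Hist2h2ab*, the H2b gene *Hist2h2be* and the H4 gene *Hist4h4*. In 4 pairs of genes the whole CDS was identical, namely *Hist1h2ao* and *Hist1h2ap*, *Hist1h2bq* and *Hist1h2br*, *Hist2h2aa1* and *Hist2h2aa2*, and *Hist1h4m* and *Hist1h4n*. A read from such a stretch cannot be placed in 1 gene, so the count of a histone gene is uncertain where its counted positions are shared.

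The first question was how much of each library these genes held. They had 313682 footprints on the CDS, which was 9.81% of all CDS footprints (Wilson 95% interval 9.77 to 9.84). In replicate 1 of RNA-seq they had 302 counts on exons, or 0.00282% of the library (0.00252 to 0.00316), and in replicate 2 they had 564, or 0.00403% (0.00371 to 0.00437). The share was thus high in ribosome profiling and low in both RNA-seq libraries, with a log2 ratio of 11.48 to the mean RNA-seq share, 11.76 against replicate 1 and 11.25 against replicate 2. No test between the assays was run, since ribosome profiling had 1 library and the study's test needs a second condition. The sources used here do not say how RNA was selected for the RNA-seq libraries, by poly(A) tail or otherwise. Its part in the RNA-seq shares, in this ratio and in the translational efficiencies below was not tested, and for mRNAs without a tail these values may not stand for the mRNA level. In bulk libraries the number of cells in S phase and the histone RNA per cell cannot be told apart. Intervals here and below cover counting error only. The size of both shares depends on the total used, and against the larger library totals implied by the deposited RPKM values the footprint share was 0.155% and the log2 ratio 7.73. It also depends on the rows used. With rows on the plus strand alone the log2 ratio was 8.84 and with those on the minus strand alone 12.75, settings chosen after the data were seen. Whether a footprint in a stretch shared by several genes was counted in several rows was not tested. The histone sum, its share and the ratio may thus hold some footprints repeatedly, which the interval does not cover. With only the row with most footprints in each family, also chosen after the data were seen, the footprint share was 1.86%.

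The RNA-seq counts lay on few genes. The 8 genes with most counts held 86.5% of the histone counts in replicate 1 and 74.5% in replicate 2. *Hist3h2a*, an H2a gene outside the large cluster, had the most, with 108 and 185 counts in replicates 1 and 2 and 1489 footprints on the CDS. *Hist1h2bc*, an H2b gene with a second exon, had 57.8 and 70.3 counts, of which 48.8 and 59 were on the 3′UTR, and 514 footprints on 25 counted nt, or 20.6 per nt. *Hist2h2be*, which like *Hist1h2bc* lacked the motif in the transcript searched, had 23 and 28.7 counts, of which 20.6 and 23.2 were on the 3′UTR, and 342 footprints. *Hist1h2be* had 17 and 44 RNA-seq counts and 14061 footprints, *Hist1h2bl* had 16 and 25 and 14262, and *Hist1h2bf* had 12 and 26 and 12094. *Hist1h1c*, a linker histone gene, had 17.9 counts in each replicate and 2816 footprints, and *Hist1h4i* had 9.89 and 23.4 and 11321. A poly(A) signal near the annotated end was present in 5 of these 8 genes. Over all rows of a single gene, the 15 with such a signal held 61.2% and 56.9% of the histone RNA-seq counts in replicates 1 and 2 and 18.9% of the footprints. Without *Hist3h2a*, the 14 others held 39.6% and 35.9% of the remaining RNA-seq counts and 18.5% of the remaining footprints. The rows without a signal include genes that have no annotated 3′UTR, such as *Hist1h2bl*, in which none could be found. The 45 rows with the stem-loop held 64.6% and 69.8% of the histone RNA-seq counts and 68.7% of the footprints. Among the remaining genes, 7 rows with counted exons had 0 RNA-seq counts in both replicates, which allows a share of up to 2.80e-05% in replicate 1 and 2.14e-05% in replicate 2.

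**Figure D1:**
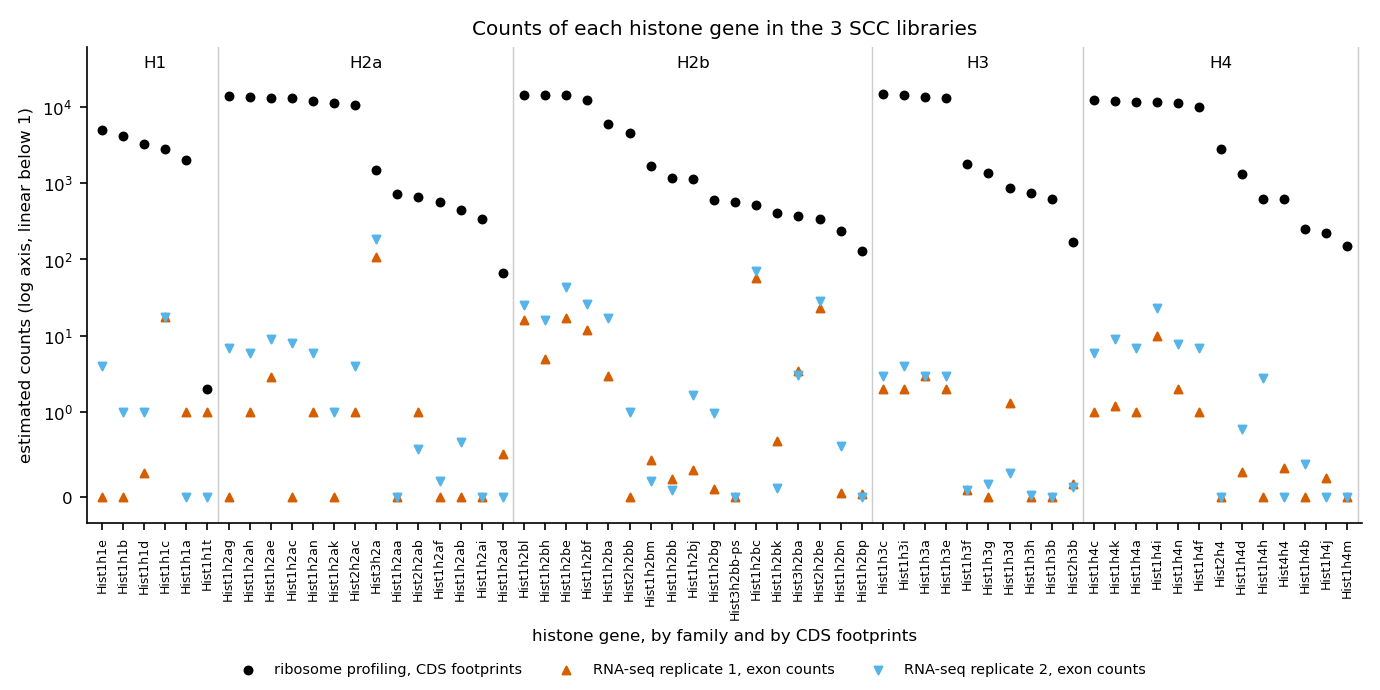
Estimated counts of the 60 histone rows with a counted CDS, grouped by family and ordered by footprints, on a log axis that is linear below 1. Black points are CDS footprints, and triangles are exon counts of RNA-seq replicates 1 and 2. In each row the footprints lie above both RNA-seq counts, and the 20 rows with over 10000 footprints all belong to the 4 core families.

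The histone shares of the 2 replicates differed by more than counting error, since their intervals given above did not overlap. How often other genes or sets of genes differ as much between these libraries was not computed. The difference is thus not shown to be particular to the histone genes. As shares of all exon counts, genes on the plus strand of the genome had 0.00204% in replicate 1 (0.00178 to 0.00233) and 0.00226% in replicate 2 (0.00202 to 0.00252), and genes on the minus strand had 0.000788% (0.000637 to 0.000975) and 0.00177% (0.00156 to 0.00200). The intervals of the 2 replicates thus overlapped for the plus strand genes together and not for the minus strand genes together. By family, H4 had 0.000158% and 0.000459% of the exon counts in replicates 1 and 2, H2a 0.00108% and 0.00162%, H2b 0.00130% and 0.00168%, H1 0.000189% and 0.000171% and H3 9.88e-05% and 9.77e-05%. These intervals did not overlap for H4 and H2a and overlapped for H1, H2b and H3. H1 and H3 had only 10.6 to 23.9 counts in a library, so their intervals were wide and the tally depends in part on count size. The H2a rows of the plus strand had 110 and 186 counts, most of them on *Hist3h2a*, and those of the minus strand 5.91 and 41. These counts are not scaled to library size. As shares of the histone RNA-seq counts they were 36.3% and 33.0% on the plus strand and 1.95% and 7.27% on the minus strand. Intervals by strand within H2a were not computed.

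The footprints themselves divided by strand. The 36 rows on the plus strand held 10.0% of the histone footprints and the 30 rows on the minus strand 90.0%, and the row of joined names spans both strands. All 20 rows with over 10000 footprints were on the minus strand. The tables give the length of CDS that was counted in each row, and that length differed by strand. On the minus strand, 26 of the 29 rows with an annotated CDS had at least 80% of it counted, with a median of 100%. On the plus strand this held for 6 of 36 rows, with a median of 23.4%. Among the other genes of the tables, 79.8% of 9542 rows on the plus strand and 94.9% of 9656 rows on the minus strand had 80% or more of the CDS counted, so the difference by strand was present there too and was smaller.

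The counted length of plus strand genes followed how much of their sequence is shared. For each gene, the windows of 28 nt that start in the CDS were compared with all annotated transcripts on both strands, and a window was called unshared if no other annotated locus held it. For the 29 plus strand genes in which a window could be read from each CDS position, the counted nt minus the number of unshared windows had a median of 1 nt and ranged from -12 to 18 nt, and 24 of the 29 were within 10 nt. *Hist1h3d*, for example, had 68 of 408 nt counted, or 16.7%, and 16.7% of its windows were unshared. For the 21 minus strand genes treated in the same way, the counted length exceeded the unshared windows by a median of 270 nt. *Hist1h3c*, on the minus strand, had all 408 nt counted while 16.9% of its windows were unshared. The median absolute difference on the plus strand was smallest at a window of 28 nt, with 2 nt, against 5 nt at 26 nt, 3 nt at 30 nt and 10 nt at 24 and 34 nt. The counted length on the plus strand was thus close to the number of positions at which a read of footprint length would be unique in the annotation, and on the minus strand the 25 genes with an unshared window were counted over at least 80% of the CDS. Of the 4 minus strand genes without one, 3 had 0 nt counted and *Hist1h4n* had 200% of its CDS counted. The paper's methods do not name the annotation or any positions left out of the counting, and the source of the difference by strand was not tested.

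**Figure D2:**
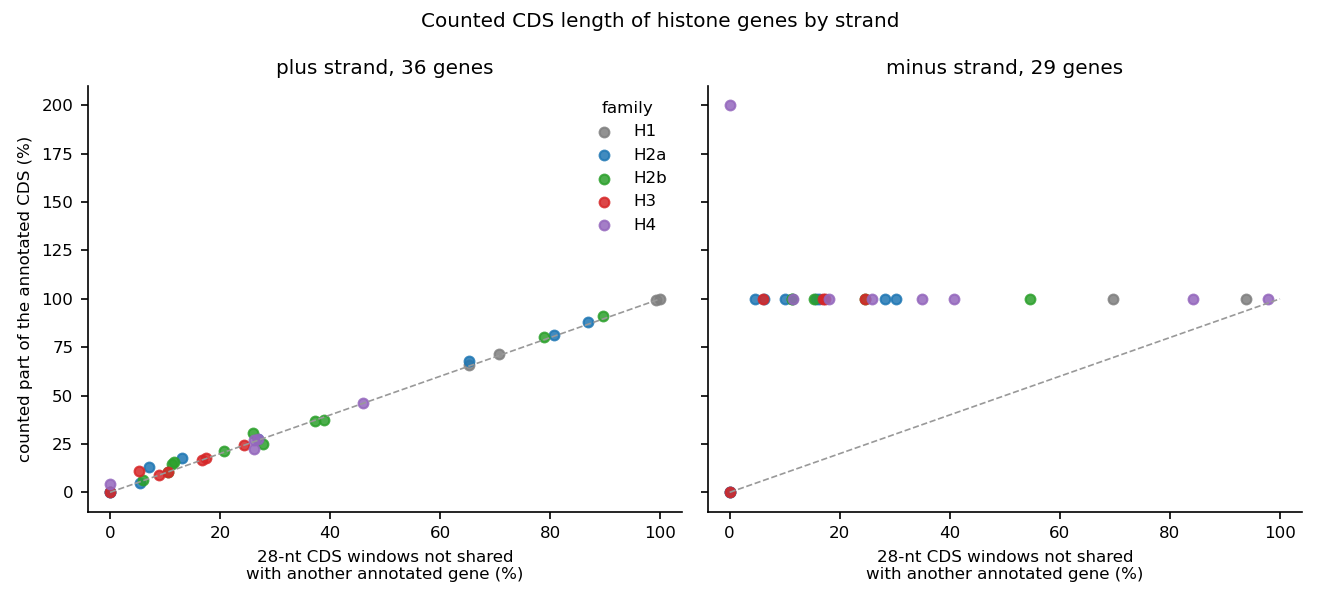
Counted part of the annotated CDS against the share of 28-nt CDS windows not shared with another annotated gene, for 36 histone genes on the plus strand (left) and 29 on the minus strand (right), coloured by family. The dashed line marks equal percentages, and the point at 200% is *Hist1h4n*.

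There were 7 rows without any counted CDS: *Hist1h2ao*, *Hist1h2ap*, *Hist2h2aa1*, *Hist2h2aa2*, *Hist2h3c1*, *Hist2h3c2* and the joined row. In each, the genes had no unshared window or were an identical pair, on either strand, and all 7 had 0 footprints. Of the fourth identical pair, *Hist1h4n* on the minus strand had 618 nt counted, 200% of its annotated CDS, and 11040 footprints, and *Hist1h4m* on the plus strand had 13 nt and 148 footprints.

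Footprints per counted nt also differed with sharing. Among the minus strand genes with at least 80% of the CDS counted, the 5 with at least 50% of their windows unshared had 1.97 to 15.4 footprints per nt, and the 21 with fewer unshared windows had 17.9 to 39.1. The ranges did not overlap. The 5 genes were *Hist4h4* with 1.97, *Hist1h1b* with 6.08, *Hist1h1e* with 7.56, *Hist2h4* with 9.08 and *Hist1h2ba* with 15.4. Of these, 2 are H1 genes, a family of low density, so family and sharing are mixed in this comparison. Over all 26 the Spearman correlation between unshared windows and footprints per nt was -0.46, over the 24 of core families -0.31 and within the 21 0.03, as a description of genes that share a library and much of their sequence. *Hist1h4n*, whose counted length exceeds its annotated CDS, had the lowest density of the 21. Without it the range of the other 20 was 26.8 to 39.1 footprints per nt and their correlation -0.13. For the shared genes these values cannot be told apart from the footprints of their copies.

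**Figure D3:**
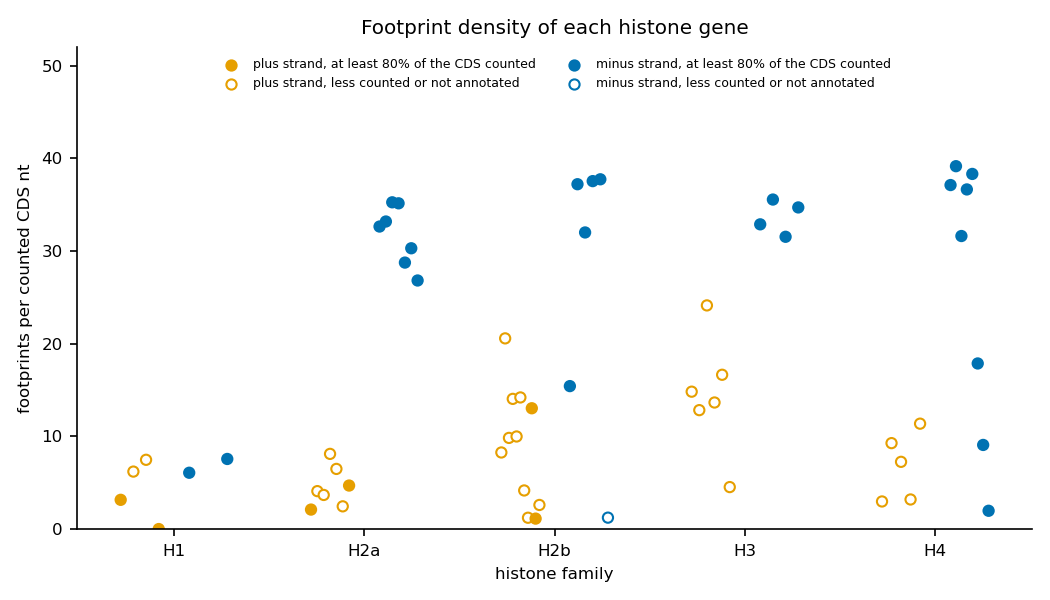
Footprints per counted CDS nt of each histone row by family, in orange for the plus strand and in blue for the minus strand, with filled points where the counted part was at least 80% of the annotated CDS. In the 4 core families most filled blue points lie between 26.8 and 39.1, above all orange points, and in H1 all points lie at or below 7.56.

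The linker histones were described first by subtype. *Hist1h1e* had 4969 footprints and 0 and 4 RNA-seq counts in replicates 1 and 2, and *Hist1h1b* had 4065 and 0 and 1. *Hist1h1d* had 3266 footprints and 0.287 and 1 RNA-seq counts, and *Hist1h1c* had 2816 footprints and the 17.9 counts given above. *Hist1h1a* had 2004 footprints and 1 and 0 RNA-seq counts. These 5 somatic subtypes lay within 3.16 to 7.56 footprints per counted nt. *Hist1h1t*, the testis subtype, had 2 footprints over a fully counted CDS and 1 and 0 RNA-seq counts, which is below the floor of 3 counts in each library. H1 genes had 65.3% to 100% of their windows unshared. Most core genes lay below this range, but some lay within it, such as *Hist4h4* with 97.7% and *Hist2h2bb* with 89.5%.

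In the H2a family, whose histones pair with H2b, *Hist1h2ag* had 13747 footprints and 0 and 7 RNA-seq counts in replicates 1 and 2, *Hist1h2ah* had 13493 and 1 and 6, and *Hist1h2ae* had 12939 and 2.91 and 9. The counted row with the fewest footprints was *Hist1h2ad*, with 66.3 on 18 counted nt and 0.515 and 0 RNA-seq counts. The high genes were all on the minus strand and the low one on the plus strand. *Hist1h2aa*, known from the testis, had 718 footprints on 341 counted nt, with 86.8% of its windows unshared, and 0 RNA-seq counts in both replicates. *Hist2h2ac*, in the Hist2 cluster, had 10377 footprints and 1 and 4 RNA-seq counts, and *Hist2h2ab* had 650 footprints on 265 nt and 1 and 0.564 RNA-seq counts.

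In the H2b family, *Hist1h2bl* and *Hist1h2be* had the values given above, and *Hist1h2bh* had 14188 footprints and 5 and 16 RNA-seq counts. The fewest were on *Hist1h2bp*, with 127 footprints on 104 nt and 0.0396 and 0.00990 RNA-seq counts. *Hist1h2ba*, a germ line gene, had 5876 footprints over its whole CDS and 3 and 17 RNA-seq counts, with 54.6% of its windows unshared. Footprints on its unshared and shared stretches cannot be told apart in counts per gene. *Hist2h2bb* had 4483 footprints on 344 nt, with 89.5% of its windows unshared, and 0 and 1 RNA-seq counts, and *Hist3h2ba* had 367 footprints on 141 nt and 3.50 and 3.09. *Hist3h2bb-ps*, annotated in GENCODE M21 as a processed pseudogene, had 570 footprints on 462 counted nt and 0 RNA-seq counts in both replicates.

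In the H3 family, *Hist1h3c* had 14503 footprints and 2 and 3 RNA-seq counts in replicates 1 and 2, *Hist1h3i* had 14156 and 2 and 4, and *Hist1h3a* had 13411 and 3 in each. The fewest were on *Hist2h3b*, with 168 on 37 nt and 0.158 and 0.119 RNA-seq counts. In the H4 family, which pairs with H3, *Hist1h4c* had 12096 footprints and 1 and 6 RNA-seq counts, *Hist1h4k* had 11837 and 1.20 and 9, and *Hist1h4a* had 11467 and 1 and 7. The fewest were on *Hist1h4m*, given above, with 0 RNA-seq counts in both replicates. Outside Hist1, *Hist2h4* had 2804 footprints and 0 RNA-seq counts in both replicates, and *Hist4h4* had 610 footprints and 0.347 and 0 RNA-seq counts. Both had their whole CDS counted and most of their windows unshared (84.1% and 97.7%), the highest shares among the H3 and H4 rows.

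By cluster, Hist1, on chromosome 13 from 21715763 to 23934851, held 93.0% of the histone footprints and 54.6% and 60.6% of the histone RNA-seq counts in replicates 1 and 2. Hist2, on chromosome 3, held 6.0% of the footprints and 8.33% and 6.10% of the RNA-seq counts. Hist3, on chromosome 11, held 0.773% of the footprints and 36.9% and 33.3% of the RNA-seq counts, nearly all of them on *Hist3h2a*. *Hist4h4*, on chromosome 6 and the only row of Hist4, held 0.195% of the footprints and 0.115% and 0% of the RNA-seq counts. Hist3 thus stood high in RNA-seq for its footprints, and Hist1 took most of both. With plus strand rows alone, a comparison added after the data were seen, Hist1 held 76.1% of the footprints.

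By family, the footprints were 17122 for H1, 90566 for H2a, 72036 for H2b, 60455 for H3 and 73503 for H4. The footprints per counted nt, summed over the rows of a family and divided by those of H4, were 1.03 for H2a (1.02 to 1.04), 1.06 for H2b (1.05 to 1.07), 0.900 for H3 (0.891 to 0.910) and 0.124 for H1 (0.122 to 0.126). These sums cover the rows with a counted CDS, 14 of H2a, 17 of H2b, 10 of H3, 13 of H4 and 6 of H1. Footprints in stretches shared by several genes may enter a sum repeatedly, which was not tested and which the intervals do not cover. H1 was below the core families, and the size of each ratio depended on the rows used. On the minus strand alone the ratios were 1.05 for H2a, 0.761 for H2b, 0.636 for H3 and 0.0644 for H1, on the plus strand alone 0.928, 2.91, 2.54 and 0.494, and for the median row of each family 1.54, 1.15, 1.79 and 0.540. The medians over the minus strand genes with at least 80% counted were 32.6 footprints per nt for H2a (n = 7), 37.2 for H2b (n = 5), 33.8 for H3 (n = 4) and 34.1 for H4 (n = 8), against 6.82 for H1 (n = 2).

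Footprints of these genes lay on the CDS. Of the footprints on their 5′UTR, CDS and 3′UTR, 98.2% were on the CDS and 1.28% on the 5′UTR, against 92.9% and 5.02% for all other rows. The H1 family was close to the other rows, with 94.0% and 4.80%, and the core families each had 98.3% to 98.8% on the CDS. In 40 rows with a counted CDS the counted 5′UTR was 20 nt or longer, and 0 of these had more footprints per nt there than on the CDS, against 1845 of 10753 other rows (17.2%). The other rows needed only some footprint on the CDS, and their share at like footprint counts was not computed. Among the 40, *Hist1h2ag* had the highest density on its 5′UTR, 6.88 footprints per nt against 35.2 on the CDS, and *Hist1h1b* came closest to its CDS, with 5.12 against 6.08. Of 4 rows with a shorter 5′UTR, *Hist1h4c* had 353 footprints on 9 nt, or 39.3 per nt against 39.1 on the CDS, and the other 3 were below their CDS.

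Translational efficiency was computed per gene as the log2 of the CDS footprint RPKM over the mean RNA-seq exon RPKM, relative to the median of the 11082 rows with a counted CDS and at least 30 counts over the 3 libraries, with summed RNA-seq counts under 3 set to 3. It was above 1 in 22.3% of these rows and below -1 in 23.3%. All 59 histone rows that met the count limit were above 1. Among them, 32 had fewer than 3 RNA-seq counts. Such rows could meet the limit only with so many footprints that the filter fixed a value above 1. In all, 51 of the 59 met the limit only through their footprints, so the count of 59 says little about these genes. The other 8 were those with most RNA-seq counts named above, and they had values of 5.34 for *Hist3h2a* (counting interval 5.13 to 5.50), 8.23 for *Hist2h2be*, 8.60 for *Hist1h2bc*, 9.06 for *Hist1h1c*, 11.08 for *Hist1h2bf*, 11.18 for *Hist1h2bl*, 11.37 for *Hist1h4i* and 13.17 for *Hist1h2be*. *Hist3h2a* was the lowest of the 59 and of these 8, and 48 of the 11023 other rows were at or above its value. The RNA-seq RPKM of *Hist1h2be* was taken over 2510 exon nt, of which 1909 were 3′UTR that held 2 and 0 counts. Its CDS of 378 nt held 15 of the 17 counts of replicate 1 and 42 of the 44 of replicate 2. The CDS of *Hist1h2bl*, also 378 nt, held 16 and 25, and its exons spanned 431 nt. The place of *Hist1h2be* as highest of the 8 thus depends on the exon length used. *Hist1h1t*, with 2 footprints and 1 RNA-seq count, was the counted row that was not tested. Where the RNA-seq counts were 0 the value is a lower bound, with the counting error included at least 12.41 for *Hist2h4* and at least 10.38 for *Hist1h2aa*. *Hist1h2ak*, with 11211 footprints and 0 and 1 RNA-seq counts, had a counting interval of 13.96 to 21.74.

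A filter with the limits of the study, an RPKM above 1 in each RNA-seq library and a base mean above 25, was applied to the 3 SCC libraries alone and to RPKM on exon totals, so its inputs differ from those of the study. It was passed by 9862 rows, of which 20.7% were above 1. It was passed by 6 of the 67 histone rows, *Hist1h1c*, *Hist1h2bc*, *Hist1h2bf*, *Hist1h2bl*, *Hist1h4i* and *Hist3h2a*. Relative to the median of the rows passing, they ranged from 5.27 to 11.30 with a median of 10.00. The number depends on the library and on the RPKM used. Without RNA-seq replicate 1, 17 histone rows passed with a median of 11.88, and without replicate 2, 7 with 8.81. On the deposited RPKM, an alternative chosen after the data were seen, 2 passed, *Hist1h2bc* and *Hist3h2a*, with a median of 6.89.

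**Figure D4:**
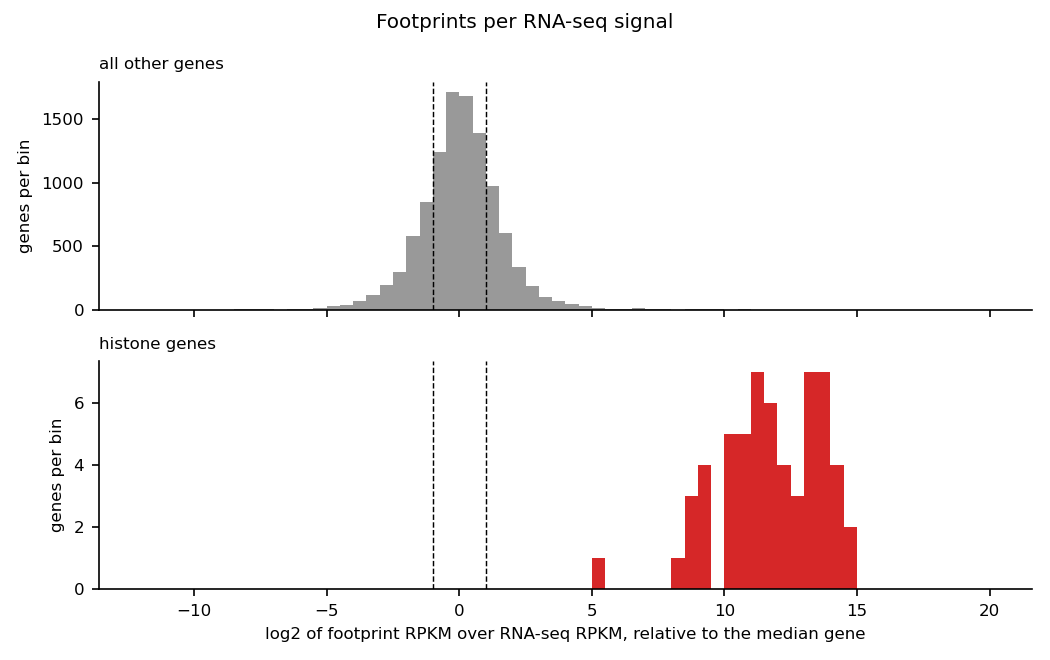
Number of genes by log2 of footprint RPKM over RNA-seq RPKM relative to the median gene, in bins of 0.5, for all other tested genes with a footprint (top) and for the 59 tested histone rows (bottom). Dashed lines mark -1 and 1, and the histone rows begin at 5.34.

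Genes that act on histone mRNAs and proteins were measured in the same libraries. Of 21 genes for histone mRNA processing, transcription and decay, 8 had a log2 translational efficiency above 1, 4 below -1 and 9 between, with a median of 0.55. For this list and those below, the shares of all tested rows to set beside these numbers are the 22.3% above 1 and 23.3% below -1 given above. *Slbp*, which encodes the stem-loop binding protein, had 255 footprints and 356 and 406 RNA-seq counts in replicates 1 and 2, and was the highest at 2.14. *Eri1*, an exonuclease that trims histone mRNA ends, had 1.96, and *Cstf2*, a cleavage factor, 1.67. The lowest were *Zfp473* with 1 footprint (-1.82, interval -7.11 to 0.83) and the uridylyl transferases *Zcchc11* (-1.50) and *Zcchc6* (-1.49). *Npat*, the histone transcription coactivator, had 153 footprints, 646 and 722 RNA-seq counts and a value of 0.14.

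Of 15 histone chaperones and importers, 10 were above 1, 0 below -1 and 5 between, with a median of 1.52. The highest were *Nap1l1* (2.92), for which 36.5% of the CDS was counted, *Asf1b* (2.90) and *Asf1a* (2.23), and the lowest *Daxx* (-0.77), *Hira* (-0.75) and *Ssrp1* (0.34). *Nasp*, a chaperone of H1 and of H3 with H4, had 668 footprints, 767 and 873 RNA-seq counts and a value of 1.66. All 11 S phase and proliferation genes were tested, 10 were above 1 and 0 below -1, and the median was 2.38. *Tyms* (4.09), *Pcna* (3.21) and *Rrm2* (2.99) were highest, and *Mki67* (0.76), *Top2a* (1.33) and *Mcm2* (1.87) lowest.

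The histone variants that have their own genes, transcribed also outside S phase, were measured as well. Of 11 variants 10 were tested, 6 were above 1, 0 below -1 and 4 between, with a median of 1.47. *H2afx*, which holds the stem-loop motif in a transcript, had 2458 footprints and 137 and 216 RNA-seq counts and a value of 7.37, and *H2afz* had 317 footprints, 40.1 and 63.6 RNA-seq counts and 5.70. *H2afj* followed with 5.27. These 3 genes are on the plus strand, with 70.9%, 23.7% and 62.1% of the CDS counted. The lowest were *H2afy2* with 2 footprints (-0.79, interval -3.85 to 1.23), *H2afy* (0.17) and *H1f0* (0.61), which had 619 footprints and 4024 and 5192 RNA-seq counts. *H1fx*, the variant not tested, had 0 footprints and 0 and 1 RNA-seq counts.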

How the data were processed

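TrimGalore trimming, STAR 2.6.1 alignment to GRCm38, removal of footprints from ribosomal, mitochondrial and tRNA genes with Bowtie2 2.4.1 and counting of gene regions with Plastid were done by the authors. The deposited gene values are estimated counts, fractional and not normalized. The deposited RPKM uses a larger library total, so RPKM was computed again from the counts, the counted lengths and the summed exon counts. The RNA-seq kit, the strand setting and the counting annotation are not given in the sources used here. Ratios were formed in Python 3.11.15 with numpy 2.4.6, pandas 2.3.3 and scipy 1.17.1. DESeq2 1.42.0 size factors, for the base mean and as an alternative scaling, and edgeR 4.0.16 TMM factors came from rounded counts. Strands and sequences were taken from GENCODE M21 by gene name, which is not the counting annotation, since exon lengths differ. Intervals of shares are Wilson 95% intervals, those of translational efficiencies are exact and those of density ratios use a normal approximation. With 1 condition no test was run and no p-value computed. A gene is visible in a library only from about 3 counts. The calculations were tested on simulated data.

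Genes were named by rule: in each family the 3 rows with most footprints and the counted row with fewest, the 8 rows with most RNA-seq counts, each H1 subtype, rows outside Hist1 with at least 100 footprints, the germ line genes *Hist1h1t*, *Hist1h2ba* and *Hist1h2aa*, the rows nearest the fold limit, and from each list the 3 highest and 3 lowest by log2 translational efficiency with *Slbp*, *Npat*, *Nasp*, *H2afx* and *H2afz*. Others were named after their values were seen. The members and lists were chosen with earlier results of these data known. The Nanopore libraries were not used.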

Additional observations from a re-analysis of the deposited data

Results flagged for a closer look

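Footprints on the 3′UTR of the histone genes lie outside the comparisons above and were above the floor of 3 counts, with no control library to set beside them. They summed to 1606 over 7286 counted nt of 59 rows, of which H2b had 484, H2a 382, H4 337, H1 212 and H3 192. They made up 0.503% of the footprints on the 5′UTR, CDS and 3′UTR of these genes, against 2.05% in all other rows of the same library. The most were on *Hist1h2be*, with 204 on 1909 nt, followed by *Hist1h2ak* with 142 on 61 nt and *Hist1h1d* with 109 on 52 nt. The source of these footprints was not tested.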

How the results depend on the processing

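No paired analysis was possible because the ribosome profiling library has no replicate in this series, and no test was run. The other SCC profiling libraries of the study are in another series and were not used. Apart from leaving out a replicate, 59 alternative values were computed for 10 results. Of these, 15 moved by less than the replicate spread, the counting interval or, for a count, 1.5 times, 36 moved by more, and 8 crossed 1, all of them density ratios to H4. Of the 15, 6 are the number of rows above 1, which included all rows tested in each setting and so says nothing of stability. Leaving out an RNA-seq replicate gave RNA-seq shares of 0.00282% to 0.00403%, log2 ratios of 11.25 to 11.76 and medians of 8.81 to 11.88 for the rows passing the RNA-seq filter (7 and 17 histone rows). The replicate spread comes from the same 2 values, so these ranges were not compared with it. With the filter on the deposited RPKM, chosen after seeing the data, the median was 6.89 (2 rows).

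With at least 80% of the CDS counted, the footprint share was 9.09%, and over exons it was 9.0%. With the implied library totals it was 0.155% and the log2 ratio 7.73. The log2 ratio was 11.90 with TMM factors and 11.96 with DESeq2 size factors. Settings by strand and by leading row were chosen after seeing the data. On plus strand rows alone the footprint share was 0.982%, the RNA-seq share 0.00215%, the log2 ratio 8.84, the number above 1 was 32 of 32 and the Hist1 share 76.1%. On minus strand rows alone these were 8.83%, 0.00128%, 12.75, 27 of 27 and 94.9%. With the leading row of each family alone, the footprint share was 1.86% and the log2 ratio 12.87. Summed by density, the Hist1 share was 93.3%.

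Density ratios to H4 for H2a, H2b, H3 and H1 were 0.979, 0.794, 0.623 and 0.110 over the annotated CDS, 1.08, 0.822, 0.636 and 0.0793 with at least 80% counted, 1.54, 1.15, 1.79 and 0.540 for the median row, 1.02, 0.849, 0.775 and 0.141 over exons, 0.928, 2.91, 2.54 and 0.494 on the plus strand and 1.05, 0.761, 0.636 and 0.0644 on the minus strand. H1 was below the core families in each setting, and the order of the core families changed. Family and the sharing of sequence are mixed in these ratios. Fewer rows enter the strand, leading-row and 80% settings by construction. For the other changes the cause was not tested. RNA-seq depth limits the values of single genes, since 32 of the 59 rows had fewer than 3 RNA-seq counts.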
